A study of Mus musculus with 15 samples.

Results

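The mitochondrial carrier family, Slc25, was followed through a mouse kidney study in which ribosomes of collagen-producing cells were tagged. Members are all genes whose array annotation symbol begins with Slc25a and that have at least 1 probe set assigned to no other gene. This gave 44 genes of 18193 on the array, with 93 of its 34945 single-gene probe sets. Of these members 21 had 1 probe set and 23 had several, and each gene is represented by its brightest probe set, by mean over the arrays. The rule uses no measured difference. All 44 passed the filter on low signal, 36 of them on all 15 arrays, and 16860 genes of the array were tested in all.

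The mice carried Tg:Col1a1-eGFPL10a, in which a collagen 1α1 promoter and enhancer element drives the large-subunit ribosomal protein L10a fused to eGFP, on a strain given as C57/129sv with sex given as both and a stage label of P14-P300. In translating ribosome affinity purification (TRAP), tagged ribosomes are pulled down with the messages they carry, which gives a bound fraction, and the remaining lysate is the unbound fraction. All 5 groups carried the transgene, although the source labels call the kidneys WT, and each group holds 3 arrays: bound and unbound fractions of sham kidneys at day 0, bound fractions after unilateral ureteral obstruction (UUO) at day 2 and day 5, and the unbound fraction of UUO at day 5. The labels describe bound RNA as that of kidney pericytes, meaning periarterial fibroblasts of the medulla, and unbound RNA as that of kidney medulla. Sham kidneys are at day 0 only, so obstruction and day cannot be told apart in any comparison between days. No label states separate animals for the arrays within a group, so p-values here measure only the spread among these samples, which may be technical. The unbound fraction holds RNA of every kidney cell type and the bound fraction is an enrichment, so in each of them fewer cells of a type and less RNA per cell cannot be told apart.

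Mitochondrial carriers are small nuclear-encoded proteins that sit mostly in the inner mitochondrial membrane and exchange nucleotides, phosphate, carboxylates, amino acids, acylcarnitines and cofactors between the cytosol and the matrix. They set which fuels a mitochondrion can burn and how ATP leaves it. Kidney tubule cells, above all those of the proximal tubule, are packed with mitochondria and burn fatty acids, whereas fibroblasts and pericytes hold fewer mitochondria. UUO blocks urine flow, injures the tubules and leads to fibrosis.

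Levels are given as normalized log2 signal of each array and differences as log2 differences ± standard error, with adjusted p-values from limma across all genes tested, two-sided, with 0.05 as the threshold. "Rose" and "fell" are kept for differences that passed. Levels of different probe sets were not set against each other, because probes differ in how well they hybridize. Of the 44 members 37 lay above the negative controls in every group. The other 7 lay at or below them in at least 1 group: Slc25a54 in all 5, Slc25a18 in 4, Slc25a2 and Slc25a41 in 3 each, Slc25a31 in 2, and Slc25a27 and Slc25a48 in 1 each.

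Within groups, arrays correlated with each other across genes at 0.918 to 0.973. Arrays 6, 9, 12 and 15 were brighter than the rest, with spiked hybridization controls at 12114 to 12905 intensity units, where the remaining 11 lay at 4727 to 5864. Every group holds 1 bright array except the day 0 bound group, so brightness moves with each comparison that uses the day 0 bound group: bound at day 2 and day 5 against day 0, bound against unbound at day 0, and the change in enrichment. Its part in them was not tested beyond the alternatives given beside the results. Array 11, a day 5 bound array, stood apart in its ratio of 5' to 3' Gapdh signal, which was 0.0269 there and between 0.178 and 0.583 on the remaining 14. Col1a1, which marks the tagged cells, was higher in the bound fraction by 2.43 ± 0.19 at day 0 (adjusted p = 8.6e-05), and 12 of 15 fibroblast and pericyte markers passed as higher there. All 7 podocyte markers tested also passed as higher in the bound fraction of day 0, where 4.83% of all genes did. The podocyte markers had a median log2 difference of 5.09, where that of the fibroblast and pericyte markers was 2.2.

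The sequences before the transcription starts show what the windows of the results' main members hold. Each line gives the 250 bases before the start of a gene in RefSeq's GRCm38.p6, 5′ to 3′ on the gene's strand, with the CCAAT box (CCAAT or ATTGG) and the GC box (GGGCGG or CCGCCC) in capitals where they occur. They are shown for a pair of ADP/ATP carriers, of which Slc25a5 fell and Slc25a4 did not pass, for 2 carriers that fell in both fractions and for 1 that rose in both.
Slc25a4, chr8:46211063-46211312, minus strand: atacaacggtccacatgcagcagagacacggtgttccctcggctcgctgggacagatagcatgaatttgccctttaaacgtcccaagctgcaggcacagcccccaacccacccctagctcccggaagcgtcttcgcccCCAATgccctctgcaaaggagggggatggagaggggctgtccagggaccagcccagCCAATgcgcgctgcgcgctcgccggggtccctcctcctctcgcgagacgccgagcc
Slc25a5, chrX:36795347-36795596, plus strand: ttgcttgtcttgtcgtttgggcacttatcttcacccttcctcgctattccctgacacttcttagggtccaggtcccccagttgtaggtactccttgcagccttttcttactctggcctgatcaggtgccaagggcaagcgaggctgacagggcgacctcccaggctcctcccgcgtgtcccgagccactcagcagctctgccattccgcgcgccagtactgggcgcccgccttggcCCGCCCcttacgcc
Slc25a29, chr12:108835877-108836126, minus strand: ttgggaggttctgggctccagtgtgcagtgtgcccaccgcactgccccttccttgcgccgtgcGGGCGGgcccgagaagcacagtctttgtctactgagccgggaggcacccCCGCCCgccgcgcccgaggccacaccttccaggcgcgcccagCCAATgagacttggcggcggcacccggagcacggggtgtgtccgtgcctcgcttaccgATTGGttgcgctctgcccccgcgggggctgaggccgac
Slc25a42, chr8:70212282-70212531, minus strand: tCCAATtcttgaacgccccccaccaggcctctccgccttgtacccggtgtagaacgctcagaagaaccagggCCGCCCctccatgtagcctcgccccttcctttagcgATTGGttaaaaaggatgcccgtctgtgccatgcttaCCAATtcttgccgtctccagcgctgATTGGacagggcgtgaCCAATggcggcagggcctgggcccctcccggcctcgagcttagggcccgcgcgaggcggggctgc
Slc25a24, chr3:109122899-109123148, plus strand: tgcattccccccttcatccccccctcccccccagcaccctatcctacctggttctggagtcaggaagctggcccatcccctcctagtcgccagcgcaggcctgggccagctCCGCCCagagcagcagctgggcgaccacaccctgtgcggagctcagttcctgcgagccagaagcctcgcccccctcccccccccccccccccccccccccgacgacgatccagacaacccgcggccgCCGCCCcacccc
Slc25a4 holds 2 CCAAT boxes and 0 GC boxes in this window, whereas Slc25a5 holds 1 GC box and 0 CCAAT boxes. Slc25a42 holds 5 CCAAT boxes and 1 GC box, Slc25a29 holds 2 of each, and Slc25a24 holds 2 GC boxes and 0 CCAAT boxes. In all, 43 windows of 34 members were matched in RefSeq. The GC box occurred in 32 of these 43 windows and in 32.7% of 32851 mouse promoter windows of the same length. The CCAAT box occurred in 20 of the 43 and in 33.8% of all. The palindromic site of NRF1 occurred in 2 (Slc25a3 and Slc25a31; 3.74% of all), the cAMP response element TGACGTCA in 2 (Slc25a25 and Slc25a36; 1.55% of all), and the estrogen-related receptor site TNAAGGTCA in 0 (1.14% of all). Both strands were searched, and sites of different motifs may share bases. The median GC content was 58.0% in the members' windows and 52.4% in all windows, and GC-rich motifs occur more often in GC-rich windows. A match is a description of letters and not evidence of binding.

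The comparison of the bound fraction at day 5 of UUO with day 0 asks how messages in the bound fraction differed from those of the sham kidney. Among the carriers 6 fell and 2 rose (8 of 44, 18.2%), whereas 23.8% of all genes tested passed in either direction, 13.7% as higher and 10% as lower. The share of carriers is close to that background and is not a result about the family. The ADP/ATP carrier Slc25a5, the coenzyme A carrier Slc25a42, the basic amino acid carrier Slc25a29, the citrin gene Slc25a13, the orphan Slc25a35 and Slc25a48 fell. The citrate carrier Slc25a1 and the ATP-Mg/phosphate carrier Slc25a24 rose. The 3 arrays of each day did not overlap for 10 carriers that were lower and 5 that were higher at day 5 (16.8% and 23.7% of all genes, 40.4% in either direction). The median difference was -0.23 over the 44 members and 0.12 over all genes.

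The comparison of the unbound fraction at day 5 with day 0 asks the same of the RNA left after the pull-down and uses other arrays. No label states whether bound and unbound arrays of a day come from the same kidneys, so the 2 comparisons may not be independent. Here 7 carriers fell and 1 rose (8 of 44, 18.2%), against 10.4% of all genes in either direction, 6.44% as higher and 3.93% as lower. Slc25a5, Slc25a28, Slc25a29, Slc25a33, Slc25a34, Slc25a35 and Slc25a42 fell, and Slc25a24 rose. The median difference was -0.41 over the members and 0.01 over all genes. The 3 arrays of each group did not overlap for 23 carriers that were lower and 3 that were higher at day 5 (21.6% and 24.3% of all genes, 45.9% in either direction). Setting the 2 fractions side by side, 28 members had lower values at day 5 in both, 9 had higher values in both, 4 were higher in bound and lower in unbound, and 3 were lower in bound and higher in unbound. Slc25a5, Slc25a29, Slc25a35 and Slc25a42 passed as lower in both fractions and Slc25a24 as higher in both, which is 5 of the 11 members that passed in either. Over all genes 1128 of the 4619 that passed in either did so in both with 1 direction (24.4%), 374 as lower and 754 as higher; whether the members' share differs was not tested. The difference between the fractions in these changes is what the change in enrichment tests. Without the 4 bright arrays 5 carriers passed in bound, of which all fell (Slc25a5, Slc25a29, Slc25a35, Slc25a42 and Slc25a48), and 4 in unbound (Slc25a5, Slc25a29, Slc25a35 and Slc25a42). Of all 16860 genes 2123 then passed in bound and 599 in unbound, where 4008 and 1747 had passed with all arrays. The rises of Slc25a24 then missed the threshold at values of 1.12 in bound and 1.43 in unbound (adjusted p = 0.0506 and 0.0607).

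**Figure D1:**
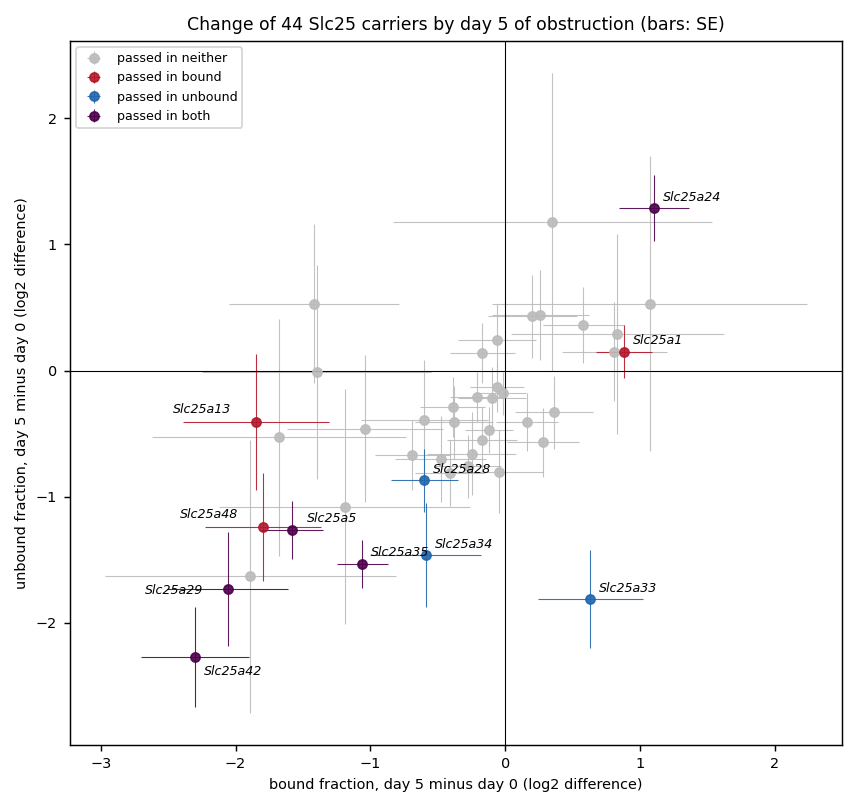
Change of the 44 carriers from day 0 to day 5 of obstruction in the bound fraction (horizontal axis) and in the unbound fraction (vertical axis), as log2 differences with bars of 1 standard error; colours mark where a member passed at an adjusted p under 0.05 and names are given to those that passed. More points lie low and left than elsewhere, Slc25a24 lies furthest up and right of the named members, and Slc25a33 lies right of 0 in bound and far below 0 in unbound.

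The ADP/ATP and phosphate carriers move the products and substrates of ATP synthase. Slc25a5, the ADP/ATP carrier found in most tissues (chrX:36795597-36798808), read 12.96, 12.88 and 12.96 on the bound arrays of day 0, 12.18, 11.46 and 11.62 on those of day 2, and 11.13, 11.45 and 11.49 on those of day 5. In the unbound fraction it read 13.43, 13.47 and 13.16 at day 0 and 12.05, 11.85 and 12.38 at day 5. Every obstructed array was below every sham array of its fraction. The difference was -1.18 ± 0.23 at day 2 and -1.58 ± 0.23 at day 5 in bound (adjusted p = 0.00751 and 0.00068) and -1.26 ± 0.23 at day 5 in unbound (adjusted p = 0.00475). The day 5 differences of both fractions kept passing when any 1 array was left out and under all 10 other settings tried.

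Slc25a4, the ADP/ATP carrier known best from heart and muscle (chr8:46207168-46211062), read 12.95, 13.04 and 12.92 on bound arrays of day 0, 12.72, 13.10 and 12.99 at day 2, and 12.96, 12.96 and 12.94 at day 5. The unbound arrays read 12.89, 13.17 and 13.03 at day 0 and 12.83, 12.77 and 12.93 at day 5. Its days overlap in both fractions. Its difference at day 5 was -0.02 in bound, with a 95% interval of -0.39 to 0.35, and -0.18 in unbound, with an interval of -0.55 to 0.19. Neither passed (adjusted p = 0.955 and 0.575), and the intervals do not reach the differences of Slc25a5; the difference between the 2 genes' changes was not tested.

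The other probe sets of both genes were read in a fit over all single-gene probe sets. All 7 further probe sets of Slc25a5 were lower at day 5, by differences of -1.47 to -1.87 in bound, where all 7 passed, and of -1.29 to -2.04 in unbound, where 6 passed. The 3 further probe sets of Slc25a4 lay between 0.04 and 0.30 in bound and between -0.67 and 0.00 in unbound, and none of them passed. The probe set used for Slc25a5 is of a type whose probes can also match similar sequences, and processed copies of ADP/ATP carrier genes exist, so their share of its signal could not be separated. The 2 probe sets of Slc25a5 that are not of this type differed by -1.81 ± 0.28 and -1.72 ± 0.36 in bound (adjusted p = 0.0014 and 0.00816).

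**Figure D2:**
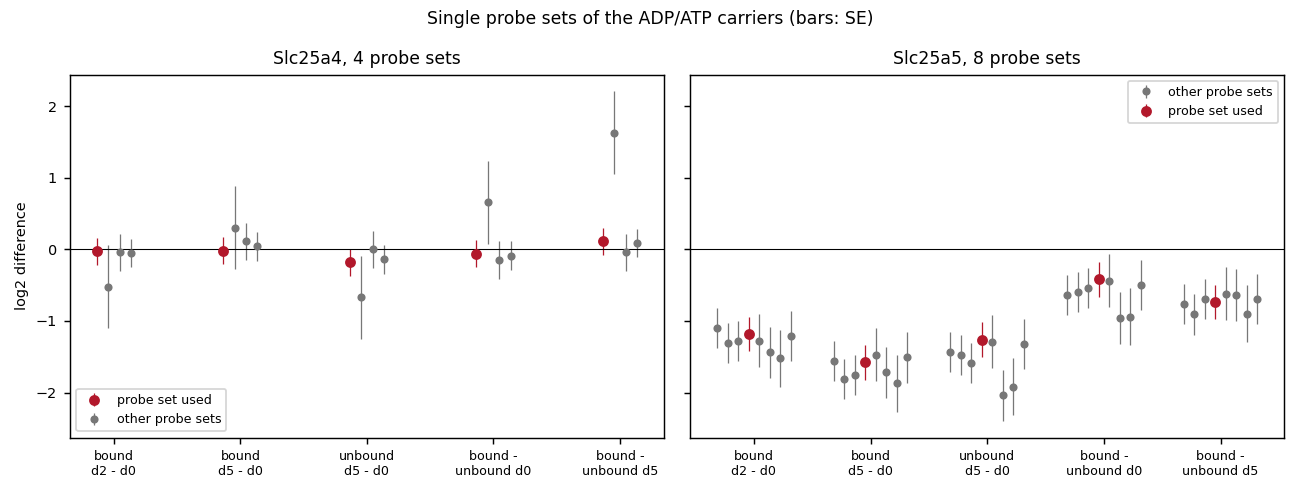
Differences (log2, vertical axis, bars of 1 standard error) of each single probe set of Slc25a4 (left) and Slc25a5 (right) in 5 comparisons along the horizontal axis, with the probe set used in red. All 8 probe sets of Slc25a5 lie below 0 in each comparison, and those of Slc25a4 lie on both sides of 0.

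The phosphate carrier Slc25a3, which brings in the phosphate for ATP synthesis, differed by -0.39 ± 0.24 in bound and -0.29 ± 0.24 in unbound at day 5 (adjusted p = 0.261 and 0.511). Its other probe set differed by -1.17 in bound, which did not pass, and by 0.18 in unbound. Slc25a31, the ADP/ATP carrier of germ cells, lay at or below the controls in the day 0 unbound and day 2 bound groups and passed in no comparison. Thus 1 of the 4 carriers of this role fell in each fraction and the others did not pass.

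Among the 7 carriers of ATP-Mg, coenzyme A and peroxisomal nucleotides 1 fell and 1 rose in both fractions. Slc25a42, which brings coenzyme A into the matrix in exchange for adenine nucleotides (chr8:70184340-70212281), read 9.56, 8.57 and 9.39 on bound arrays of day 0, 7.86, 7.08 and 7.04 at day 2 and 6.76, 6.33 and 7.52 at day 5. The unbound arrays read 9.72, 9.02 and 9.68 at day 0 and 6.78, 7.05 and 7.77 at day 5. No obstructed array reached a sham array of its fraction. The difference was -1.84 ± 0.40 at day 2 and -2.30 ± 0.40 at day 5 in bound (adjusted p = 0.0135 and 0.002) and -2.27 ± 0.40 in unbound (adjusted p = 0.00382). Its only other probe set lay at or below the controls in all 5 groups. Averaging both sets ended the day 5 calls (differences of -1.35, adjusted p = 0.121 in bound and 0.188 in unbound), and the day 2 value then was -0.64 (adjusted p = 0.566). The day 2 call was also lost without array 3 (adjusted p = 0.0503), with only the groups of the contrast (adjusted p = 0.106), with array weights (adjusted p = 0.0812) and without the bright arrays (adjusted p = 0.0685).

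Slc25a24, a calcium-activated carrier that loads ATP-Mg into the matrix (chr3:109123149-109168409), read 10.63, 10.69 and 10.65 on bound arrays of day 0, 11.08, 11.75 and 11.79 at day 2, and 11.74, 11.81 and 11.72 at day 5. In the unbound fraction the arrays read 9.70, 10.45 and 10.63 at day 0 and 11.62, 11.39 and 11.63 at day 5. All arrays after obstruction were above all sham arrays of the same fraction. It rose by 1.10 ± 0.26 in bound and 1.29 ± 0.26 in unbound at day 5 (adjusted p = 0.0107 and 0.00824), and its day 2 difference of 0.88 ± 0.26 did not pass (adjusted p = 0.0526). Its second probe set, dim and at the controls in 1 group, differed by -0.37 ± 1.32 and 2.28 ± 1.32, and the calls were lost when the sets were averaged (adjusted p = 0.74 in bound and 0.127 in unbound). The unbound call was also lost with arrays centred on their medians (0.87, adjusted p = 0.196).

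No other ATP-Mg carrier passed for day 5 in either fraction. Slc25a23 differed by -0.06 ± 0.29 in bound and 0.24 ± 0.29 in unbound (adjusted p = 0.902 and 0.669), and Slc25a25 by -0.05 ± 0.33 and -0.80 ± 0.33 (adjusted p = 0.94 and 0.157). Slc25a16, a carrier tied to coenzyme A supply, and Slc25a17, the peroxisomal nucleotide carrier, had values of -0.69 ± 0.28 and -0.60 ± 0.47 in bound that did not pass (adjusted p = 0.089 and 0.39). Slc25a41, the short ATP-Mg carrier without a calcium-binding domain, was at or below the controls in 3 groups.

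Of the 3 carboxylate carriers measured, which trade citrate, malate, succinate and 2-oxoglutarate, 1 rose in bound and none passed in unbound. Slc25a1, which exports citrate for fatty acid and sterol synthesis (chr16:17925211-17928219), read 9.28, 9.30 and 8.93 on bound arrays of day 0, 9.30, 9.61 and 9.75 at day 2, and 10.12, 9.91 and 10.13 at day 5. On unbound arrays the signal was 9.45, 9.03 and 9.57 at day 0 and 9.44, 9.54 and 9.53 at day 5. The day 5 bound arrays stood above all others of either fraction. The rise was 0.88 ± 0.21 in bound (adjusted p = 0.01) and the unbound value was 0.15 ± 0.21 (adjusted p = 0.717). With only the groups of the contrast the rise missed the threshold (adjusted p = 0.0545), and only 1 probe set measures the gene.

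The dicarboxylate carrier Slc25a10, which swaps malate or succinate for phosphate, read 9.96, 9.97 and 9.87 on bound arrays of day 0, 9.95, 9.76 and 10.20 at day 2 and 9.74, 10.30 and 9.26 at day 5, and 10.93, 10.62 and 10.46 on unbound arrays of day 0 and 9.92, 10.35 and 10.06 at day 5. Only its unbound groups do not overlap between days, and the difference there, -0.55 ± 0.26, did not pass (adjusted p = 0.217). The oxoglutarate carrier Slc25a11, which with the aspartate carriers runs the malate-aspartate shuttle, differed by -0.41 ± 0.26 in bound and -0.81 ± 0.26 in unbound (adjusted p = 0.267 and 0.0654).

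Among the 4 aspartate and glutamate carriers 1 fell, in bound. Slc25a13 encodes citrin, the aspartate/glutamate carrier of liver and kidney epithelium that feeds the malate-aspartate shuttle (chr6:6041218-6217304). It read 10.92, 10.93 and 11.58 on bound arrays of day 0, 11.54, 9.24 and 9.19 at day 2, and 9.87, 9.48 and 8.54 at day 5. Unbound arrays read 11.61, 11.77 and 11.82 at day 0 and 11.03, 11.61 and 11.34 at day 5. At day 2, array 7 was as high as sham arrays while the other 2 were far lower. The day 5 difference in bound was -1.85 ± 0.54 (adjusted p = 0.0281), and the call was lost without array 2, 3, 11 or 12 (adjusted p = 0.0521 to 0.0994). In unbound the value was -0.41 ± 0.54 (adjusted p = 0.708).

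Slc25a12, the second aspartate/glutamate carrier, read 9.71, 9.38 and 10.09 on bound arrays of day 0 and 9.35, 9.50 and 9.48 at day 5, and 10.28, 10.87 and 10.60 on unbound arrays of day 0 and 9.86, 9.85 and 9.76 at day 5. The unbound groups do not overlap, and the difference there, -0.76 ± 0.25, missed the threshold (adjusted p = 0.0714). The glutamate carrier Slc25a22 had a value of 0.81 ± 0.39 in bound that did not pass (adjusted p = 0.15), and Slc25a18, the other glutamate carrier, was at or below the controls in 4 groups.

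In the list of 7 basic amino acid and acylcarnitine carriers Slc25a29 fell in both fractions and Slc25a48 in bound. Slc25a48 stands in this list although its known link is to choline, and the 5 members besides these did not pass in either fraction. Slc25a29, which carries arginine, lysine and other basic amino acids (chr12:108825878-108835876), read 9.39, 9.47 and 9.55 on bound arrays of day 0, 6.70, 7.87 and 8.95 at day 2, and 7.09, 7.46 and 7.67 at day 5. In the unbound fraction the arrays read 8.65, 8.70 and 9.14 at day 0 and 6.80, 6.79 and 7.70 at day 5. Obstructed arrays lay below sham arrays throughout, with the widest scatter at day 2. The difference was -1.63 ± 0.45 at day 2 and -2.06 ± 0.45 at day 5 in bound (adjusted p = 0.0418 and 0.00731), and -1.73 ± 0.45 in unbound (adjusted p = 0.0297). The 4 further probe sets were lower too at day 5, by -0.51 to -1.75 in bound and -0.32 to -1.50 in unbound, and 3 of them passed in each. The bound call at day 5 held without any 1 array and under all 10 other settings. The day 2 call was lost without array 1, 2, 3, 7 or 8 (adjusted p = 0.068 to 0.109) and with median centring, mean of probe sets, only the groups of the contrast or array weights (adjusted p = 0.0542 to 0.267), and the unbound call without array 4, 5, 6, 13 or 14 (adjusted p = 0.0734 to 0.119).

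Slc25a48, a kidney carrier linked to choline import (chr13:56437960-56472367), read 5.97, 6.37 and 6.03 on bound arrays of day 0, 5.86, 5.55 and 6.45 at day 2, and 5.21, 3.25 and 4.49 at day 5. On unbound arrays the signal was 7.90, 8.16 and 7.89 at day 0 and 6.28, 6.75 and 7.21 at day 5. The mean of its day 5 bound group lay at or below the negative controls. This came through array 11, the one with the low Gapdh ratio, which was below its highest control (3.25 against 4.92). Arrays 10 and 12 read above theirs (4.27 and 4.24). The fall is therefore given as a bound of at least 2.37-fold, each array being set to at least its highest negative control. The fitted difference was -1.80 ± 0.43 (adjusted p = 0.0107, and 0.0681 with only the groups of the contrast). The unbound difference, -1.24 ± 0.43, did not pass (adjusted p = 0.0897) although its groups do not overlap.

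Slc25a20, which carries acylcarnitines into the matrix for fatty acid oxidation, read 12.03, 12.20 and 12.30 on bound arrays of day 0, 11.70, 11.94 and 11.84 at day 2, and 11.88, 12.24 and 12.23 at day 5. Unbound arrays read 11.93, 12.12 and 12.47 at day 0 and 11.99, 11.98 and 12.16 at day 5. Day 0 and day 5 overlap in both fractions. The day 5 difference was -0.06 in bound, with a 95% interval of -0.49 to 0.37, and -0.13 in unbound, with one of -0.56 to 0.30. Its other probe set differed by 0.29 in bound and -0.51 in unbound. The ornithine carrier Slc25a15 of the urea cycle (-0.48 ± 0.34 and -0.70 ± 0.34), Slc25a45 (0.20 ± 0.33 and 0.43 ± 0.33) and Slc25a47 (-1.89 ± 1.08 and -1.63 ± 1.08) did not pass in either fraction, and Slc25a2 was at or below the controls in all 3 bound groups.

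Carriers of pyrimidine nucleotides, folate and NAD had 1 member of 4 that fell, in unbound. Slc25a33, which brings pyrimidine nucleotides into the matrix for mitochondrial DNA and RNA synthesis (chr4:149744036-149774267), read 8.06, 8.34 and 7.33 on bound arrays of day 0, 7.86, 8.33 and 9.16 at day 2, and 8.03, 9.02 and 8.57 at day 5. In the unbound fraction the arrays read 8.85, 9.65 and 8.82 at day 0 and 7.46, 7.15 and 7.29 at day 5. The unbound arrays of day 5 were below those of day 0 without overlap, whereas the bound days overlap. The unbound difference was -1.81 ± 0.39 (adjusted p = 0.0116; 0.0557 without array 5) and the bound value 0.63 ± 0.39 (adjusted p = 0.262).

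Slc25a36, the paralog of Slc25a33, read 11.24, 11.59 and 11.81 on bound arrays of day 0 and 11.36, 11.56 and 11.21 at day 5, and 11.85, 11.96 and 12.22 on unbound arrays of day 0 and 12.16, 12.15 and 12.15 at day 5. Its days overlap in both fractions. Its probe sets disagree: the one used differed by -0.17 at day 5 in bound, while the other 2 differed by -0.64 and -1.96, of which the latter passed. The folate carrier Slc25a32 had values of 0.58 ± 0.30 and 0.36 ± 0.30 that did not pass. Slc25a51, the NAD carrier, read 12.51, 12.50 and 12.65 on bound arrays of day 0, 12.45, 12.41 and 12.23 at day 2 and 12.56, 11.92 and 12.56 at day 5, and 12.73, 12.73 and 12.92 on unbound arrays of day 0 and 12.46, 12.63 and 12.65 at day 5. Its differences of -0.21 ± 0.20 in both fractions did not pass (adjusted p = 0.499 and 0.587). Its other 2 probe sets differed by -0.95 and 0.18 in bound and by -0.77 and 0.02 in unbound.

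The 2 mitoferrins import iron for haem and iron-sulfur clusters. Slc25a28, mitoferrin 2, read 10.29, 10.16 and 10.26 on bound arrays of day 0, 9.44, 9.38 and 10.22 at day 2, and 9.64, 9.92 and 9.35 at day 5. On unbound arrays the signal was 10.87, 10.52 and 10.75 at day 0 and 9.79, 10.07 and 9.68 at day 5. Days 0 and 5 do not overlap in either fraction. It fell in unbound (-0.87 ± 0.25, adjusted p = 0.0459), a call lost without any 1 of the 6 arrays (adjusted p = 0.0762 to 0.158). The call was also lost with no filter, the mean of probe sets or a brightness covariate (adjusted p = 0.0529 to 0.0594). The gene has 1 probe set, so averaging probe sets left its own value at -0.87. Its bound value of -0.60 ± 0.25 did not pass (adjusted p = 0.103).

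Slc25a37, the erythroid mitoferrin 1, read 8.12, 7.22 and 8.13 on bound arrays of day 0, 7.85, 8.02 and 9.05 at day 2 and 8.40, 8.17 and 7.69 at day 5, and 8.88, 8.58 and 9.14 on unbound arrays of day 0 and 9.23, 9.67 and 9.00 at day 5. Its days overlap in both fractions, and its values of 0.26 ± 0.36 and 0.44 ± 0.36 did not pass. The glutathione carrier Slc25a39, whose protein is needed for glutathione import, read 12.29, 12.50 and 12.66 on bound arrays of day 0, 12.21, 11.99 and 13.04 at day 2 and 12.43, 12.51 and 12.20 at day 5, and 12.91, 12.74 and 12.96 on unbound arrays of day 0 and 12.54, 12.76 and 12.65 at day 5. It overlapped between days, as did its paralog Slc25a40 in bound, and neither passed (differences of -0.10 and -0.25 in bound, -0.22 and -0.66 in unbound).

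None of the 3 carriers of branched-chain amino acids, glycine and S-adenosylmethionine and none of the 3 uncoupling-protein-like carriers passed for day 5 in either fraction. Slc25a44, which takes branched-chain amino acids into mitochondria, read 10.99, 10.33 and 10.48 on bound arrays of day 0, 10.94, 10.07 and 8.26 at day 2 and 9.86, 8.67 and 10.13 at day 5, and 10.04, 9.46 and 10.07 on unbound arrays of day 0 and 8.93, 9.51 and 9.76 at day 5. Its bound arrays of day 5 lay below those of day 0, with a value of -1.04 ± 0.58 (adjusted p = 0.211). Slc25a38, the glycine carrier that starts haem synthesis, and Slc25a26, the S-adenosylmethionine carrier, had values of 0.28 ± 0.27 and 0.16 ± 0.23 in bound. Slc25a14, an uncoupling-protein relative, read 10.99, 10.59 and 10.27 on bound arrays of day 0, 9.77, 10.43 and 10.17 at day 2 and 9.94, 10.80 and 9.97 at day 5, and 9.88, 10.20 and 9.84 on unbound arrays of day 0 and 9.73, 9.31 and 9.64 at day 5. Its bound days overlap and its unbound days do not. Slc25a30, first known as a kidney carrier, varied widely (-1.40 ± 0.85 in bound, adjusted p = 0.256).

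Among the 5 members that act at the outer membrane or have no settled substrate, 1 fell in bound and 2 fell in unbound. Slc25a35, an orphan carrier (chr11:68968096-68972516), read 8.83, 8.85 and 8.81 on bound arrays of day 0, 7.99, 8.24 and 8.47 at day 2, and 7.90, 7.48 and 7.93 at day 5. Unbound arrays read 9.51, 9.47 and 9.28 at day 0 and 7.85, 7.88 and 7.94 at day 5. The groups of different days do not overlap in either fraction. It fell in bound by day 5 (-1.06 ± 0.19, adjusted p = 0.00244) and in unbound (-1.53 ± 0.19, adjusted p = 0.000466), while its day 2 value of -0.60 ± 0.19 did not pass (adjusted p = 0.0713). The unbound call held without any 1 array and under all 10 other settings, and the bound call was lost only with arrays centred on their medians (adjusted p = 0.0532).

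Slc25a34, a further orphan carrier, read 6.94, 6.42 and 5.94 on bound arrays of day 0, 5.81, 5.19 and 6.45 at day 2, and 5.87, 6.23 and 5.44 at day 5. In the unbound fraction the arrays read 8.02, 7.68 and 7.87 at day 0 and 6.07, 7.20 and 5.91 at day 5. Its unbound days do not overlap and its bound days do. The unbound difference was -1.46 ± 0.41 (adjusted p = 0.0386), lost without array 4, 5, 6, 13 or 15 (adjusted p = 0.0833 to 0.15) and with a brightness covariate (adjusted p = 0.0513). Slc25a46, which shapes mitochondria from the outer membrane, read 11.32, 11.15 and 11.43 on bound arrays of day 0, 11.33, 11.13 and 11.15 at day 2 and 11.09, 11.27 and 11.20 at day 5, and 11.60, 12.00 and 11.78 on unbound arrays of day 0 and 11.26, 11.27 and 11.44 at day 5. It did not pass (-0.12 ± 0.18 in bound and -0.47 ± 0.18 in unbound). Slc25a53 differed by 0.36 ± 0.29 in bound and -0.33 ± 0.29 in unbound (adjusted p = 0.401 and 0.543), and Slc25a54 lay at or below the controls in all groups.

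**Figure D3:**
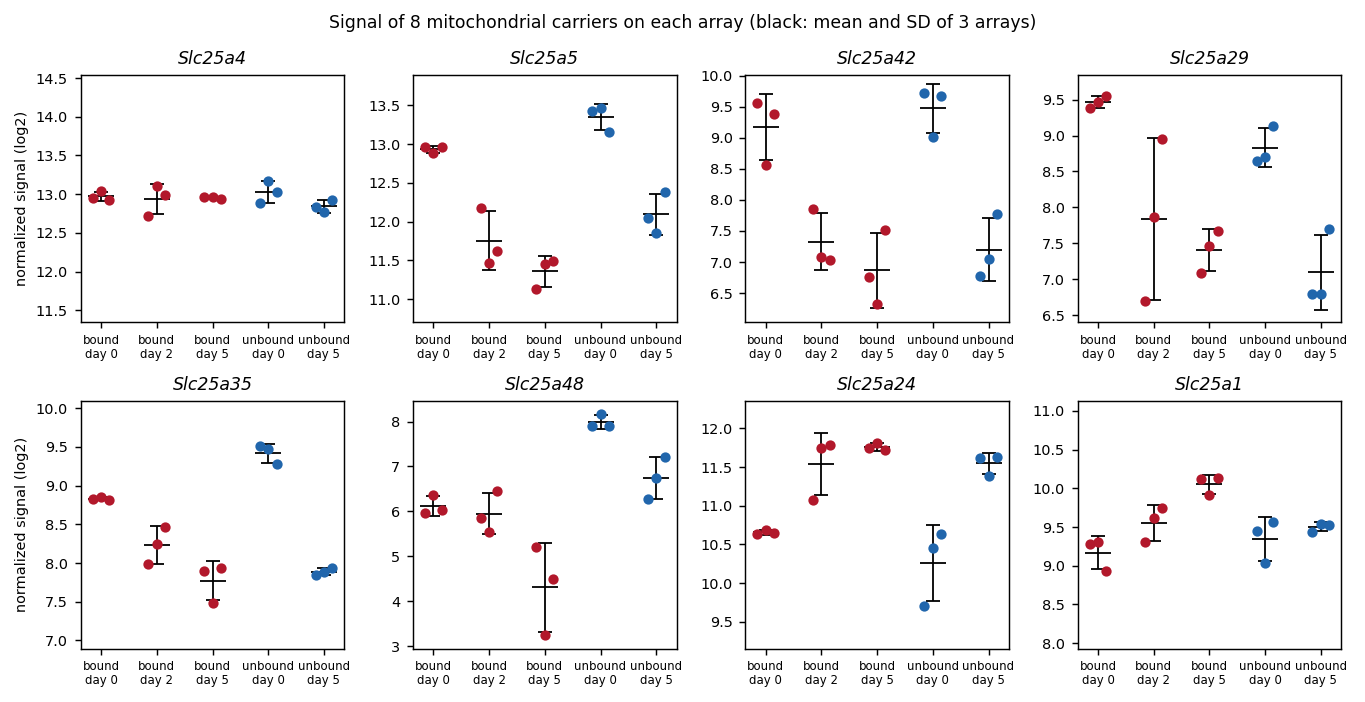
Normalized log2 signal (vertical axis) of 8 carriers on each of 15 arrays, by group along the horizontal axis (red bound, blue unbound), with the mean and SD of 3 arrays in black; each panel has its own axis range. Slc25a4 lies between 12.72 and 13.17 on all arrays, Slc25a5, Slc25a42, Slc25a29, Slc25a35 and Slc25a48 are lower at day 5, and Slc25a24 and, in bound, Slc25a1 are higher.

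The comparison of the bound fraction at day 2 with day 0 had 3 carriers that fell and 0 that rose (3 of 44, 6.82%), against 9.27% of all genes in either direction, 5.6% as higher and 3.67% as lower. The arrays did not overlap for 6 carriers that were lower and 3 that were higher at day 2 (10.1% and 11.4% of all genes, 21.5% in either direction). Those that fell were Slc25a5, Slc25a29 and Slc25a42, with the values above. Without the bright arrays Slc25a29 alone passed, with 499 of all 16860 genes in place of 1563. The call of Slc25a5 was lost with median centring (adjusted p = 0.0518) and with only the groups of the contrast (adjusted p = 0.16). Between day 2 and day 5, 0 carriers passed in limma and 9 had an unadjusted p under 0.05 (0.587% of all genes passed, 0.51% as higher and 0.0771% as lower, and 16.2% had an unadjusted p under 0.05). Here 4 carriers were higher and 4 lower without overlap (9.49% and 5.19% of all genes, 14.7% in either direction). Without array 8 of day 2, Slc25a48 passed for that interval (-1.84, adjusted p = 0.0416). The comparisons of day 2 and day 5 with day 0 share the bound arrays of day 0, so their likeness is not independent.

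Other genes of mitochondrial metabolism were read from lists by role. Over all genes 13.7% passed as higher and 10% as lower in bound at day 5, and 6.44% and 3.93% in unbound. The medians of all genes were 0.12 and 0.01. Of 19 enzymes of the malate-aspartate shuttle and tricarboxylic acid cycle, 6 fell and 0 rose at day 5 in bound, and 5 fell in unbound, with list medians of -0.53 and -0.62. Got2, the mitochondrial aspartate aminotransferase of the shuttle, differed by -2.26 ± 0.43 in bound and -2.06 ± 0.43 in unbound (adjusted p = 0.00327 and 0.00953), and Suclg1, a subunit of succinyl-CoA ligase, by -3.03 ± 0.48 and -2.90 ± 0.48 (adjusted p = 0.00113 and 0.00269). Of 18 carnitine and fatty acid oxidation genes 7 fell in bound and 4 in unbound, with medians of -0.59 and -0.60. Acadm, the medium-chain acyl-CoA dehydrogenase, fell in bound (-1.37 ± 0.30, adjusted p = 0.0074), as did Cpt1a, the carnitine palmitoyltransferase of the outer membrane (-1.34 ± 0.35, adjusted p = 0.018). Slc25a20, which stands between Cpt1a and Cpt2 in acylcarnitine import, passed in neither fraction, as given above.

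Of 14 ATP synthase subunits 2 fell in bound and 1 in unbound, with medians of -0.13 and -0.45. Of all genes 10% fell in bound and 3.93% in unbound, with medians of 0.12 and 0.01. Of 15 other mitochondrial transport proteins 1 rose and 1 fell in bound and 3 fell in unbound: Tspo, an outer membrane cholesterol-binding protein, rose in bound (1.09 ± 0.28, adjusted p = 0.0161), and Letm1, an inner membrane ion exchanger, fell in bound and unbound (-1.74 ± 0.32 and -1.67 ± 0.32, adjusted p = 0.00274 and 0.00625). Of 10 regulators of mitochondrial biogenesis 3 fell in bound and 1 in unbound. Ppargc1a, a master coactivator of mitochondrial genes, fell in bound by day 5 (-2.61 ± 0.59, adjusted p = 0.00862), with Ppargc1b (-1.91 ± 0.53, adjusted p = 0.0226) and Ppara (-2.07 ± 0.52, adjusted p = 0.0138). None of the 4 relatives outside the family symbol passed for day 5 against day 0.

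Markers of kidney cell types were read in the same comparisons. Of all genes 13.7% rose and 10% fell in bound, and 6.44% rose and 3.93% fell in unbound, with medians of 0.12 and 0.01. In bound, 12 of 16 proximal tubule markers fell by day 5 (list median -2.85), as did 9 of 10 loop and distal tubule markers (-2.34) and 7 of 10 collecting duct markers (-2.07). In unbound, 2 of 16, 3 of 10 and 5 of 10 fell, with medians of -2.00, -1.06 and -1.35. The summed log2 signal of the proximal tubule list ran from 14.86 to 15.59 on bound arrays of day 0, from 13.08 to 15.06 at day 2 and from 12.73 to 13.75 at day 5, and from 15.48 to 16.21 and from 14.51 to 15.10 on unbound arrays of day 0 and day 5. Slc5a12, Slc22a8 and Ass1 of that list were at or below the controls in the day 5 bound group. The endocytic receptor Lrp2 differed by -4.09 ± 0.72 in bound (adjusted p = 0.00219). All 7 podocyte markers fell in bound by day 5 (median -1.99), as did 6 of 10 endothelial markers (-1.39), while in unbound 1 of 7 podocyte markers rose and 0 of 10 endothelial markers passed in limma. Fibroblast and pericyte markers rose in bound (7 of 15) and unbound (8 of 15), and macrophage markers in bound (3 of 10, median 1.24) and unbound (7 of 10, median 2.46). The part of these cell types in the carriers' differences was not tested.

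The comparison of bound with unbound at day 0 asks which carrier messages were higher or lower in the pull-down relative to the remaining lysate of the sham kidney. It does not ask which messages tagged ribosomes held. None of the 44 carriers was higher in bound by the test and 4 were lower (9.09%), against 8.93% of all genes in either direction, 4.83% as higher and 4.1% as lower, so the share is near the background. The arrays did not overlap for 23 carriers that were lower and 5 that were higher in bound (22.1% and 14.7% of all genes, 36.8% in either direction). The median difference was -0.49 over the members and -0.13 over all genes. Proximal tubule markers had a median of -0.90 here, with 0 of 16 passing. Loop and distal tubule markers had one of -0.63, with 1 of 10 passing as lower. For collecting duct markers it was -0.95, with 2 of 10 passing as lower.

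Slc25a16, the carrier tied to coenzyme A (chr10:62920632-62946494), read 9.61, 9.28 and 9.63 on bound and 10.71, 10.65 and 10.88 on unbound arrays of day 0, and 8.95, 8.49 and 9.00 on bound and 9.92, 10.32 and 9.98 on unbound arrays of day 5. Every unbound array was above every bound array of its day. The difference was -1.24 ± 0.28 at day 0 and -1.26 ± 0.28 at day 5 (adjusted p = 0.0177 and 0.0132). The day 0 call was lost without array 2, 4, 5 or 6 (adjusted p = 0.0509 to 0.0702) and the day 5 call without array 14 (adjusted p = 0.0618). Both were lost with arrays centred on their medians (adjusted p = 0.0522 and 0.101).

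Slc25a48 was lower in bound at day 0 (-1.86 ± 0.43, adjusted p = 0.0201; 0.0512 to 0.0716 without array 1, 3, 4, 5 or 6). At day 5 it was at least 3.66-fold lower in bound (adjusted p = 0.00563), and this call held without any 1 array. The mean of that bound group lay at or below the controls through array 11, while arrays 10 and 12 were above theirs. Slc25a12 (-0.86 ± 0.25, adjusted p = 0.049) and Slc25a34 (-1.42 ± 0.41, adjusted p = 0.0482) also passed at day 0. The first was lost without array 1, 2, 4, 5 or 6 (adjusted p = 0.0705 to 0.171) and the second without array 2, 3, 4, 5 or 6 (adjusted p = 0.101 to 0.152). Slc25a12 was also lost in 6 of 10 other settings: -0.23 with the mean of its probe sets (adjusted p = 0.8), and -0.85 to -1.03 with no filter, median centring, only the groups of the contrast, a brightness covariate or no bright arrays (adjusted p = 0.0512 to 0.197). The only other Slc25a12 probe set above the controls in every group differed by -1.32 and did not pass. Slc25a34 was lost in 5 of 10 (adjusted p = 0.0537 to 0.125): no filter, mean of probe sets, a trended robust prior, the covariate and no bright arrays. Slc25a34 has 1 probe set, so averaging probe sets left its own value at -1.42. With the mean of its probe sets Slc25a48 had a day 0 value of -1.20 that did not pass (adjusted p = 0.1).

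At day 5, 7 carriers were lower and 0 higher in bound (15.9%), against 14.1% of all genes in either direction, 6.38% as higher and 7.76% as lower, so the share is again near the background. The arrays did not overlap for 15 carriers that were lower and 7 that were higher in bound (21.4% and 21.7% of all genes, 43.1% in either direction). The median difference was -0.19 over the members and 0.03 over all genes. Besides Slc25a16 and Slc25a48 these were the citrin gene Slc25a13 (-2.03 ± 0.54, adjusted p = 0.0288), the ATP-Mg carrier Slc25a23 (-1.14 ± 0.29, adjusted p = 0.0232), the pyrimidine carrier Slc25a36 (-0.78 ± 0.24, adjusted p = 0.0463), the mitoferrin Slc25a37 (-1.22 ± 0.36, adjusted p = 0.0441) and Slc25a5 (-0.74 ± 0.23, adjusted p = 0.0498). Slc25a23 read 10.72, 9.58 and 9.96 on bound and 11.00, 11.39 and 11.28 on unbound arrays of day 5, and 10.02, 10.08 and 10.35 on bound and 10.91, 10.93 and 11.10 on unbound arrays of day 0. Its fractions do not overlap on either day, nor do those of Slc25a13.

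Without the 4 bright arrays 0 carriers passed in limma for bound against unbound on either day. Of all 16860 genes 314 then passed at day 0 and 1 at day 5, where 1505 and 2385 had passed with all arrays. Of the day 5 calls, those of Slc25a5, Slc25a36 and Slc25a37 were lost without any 1 of the 6 arrays (adjusted p up to 0.171, 0.128 and 0.157), that of Slc25a13 without any 1 of arrays 11 to 15 (adjusted p = 0.0538 to 0.0996) and that of Slc25a23 without array 11, 12, 14 or 15 (adjusted p = 0.069 to 0.0874). With arrays centred on their medians Slc25a5 had a value of 0.00 (adjusted p = 1), Slc25a36 of -0.04 (adjusted p = 0.93), Slc25a23 of -0.63 (adjusted p = 0.251) and Slc25a37 of -0.99 (adjusted p = 0.102), so none of these 4 passed. Slc25a5 was also lost with no filter, with the mean of its probe sets, with only the groups of the contrast and with a brightness covariate (adjusted p = 0.0578 to 0.107). Slc25a36 was lost with no filter, the mean of its probe sets or the covariate (adjusted p = 0.0531 to 0.0571), Slc25a37 with the covariate (adjusted p = 0.0566) and Slc25a23 with only the groups of the contrast (adjusted p = 0.0619). Tubule markers were lower in bound at day 5 as well, with 8 of 10 loop and distal tubule, 6 of 10 collecting duct and 3 of 16 proximal tubule markers passing and medians of -2.04, -1.84 and -1.72. Endothelial markers were lower too in 5 of 10 cases and higher in 1 (median -1.78), and 2 of 10 macrophage markers were lower (median -1.69). Fibroblast and pericyte markers were higher in 8 of 15 (median 1.63) and podocyte markers in 4 of 7 (median 2.52). The part of these cell types in the carriers' differences was not tested.

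**Figure D4:**
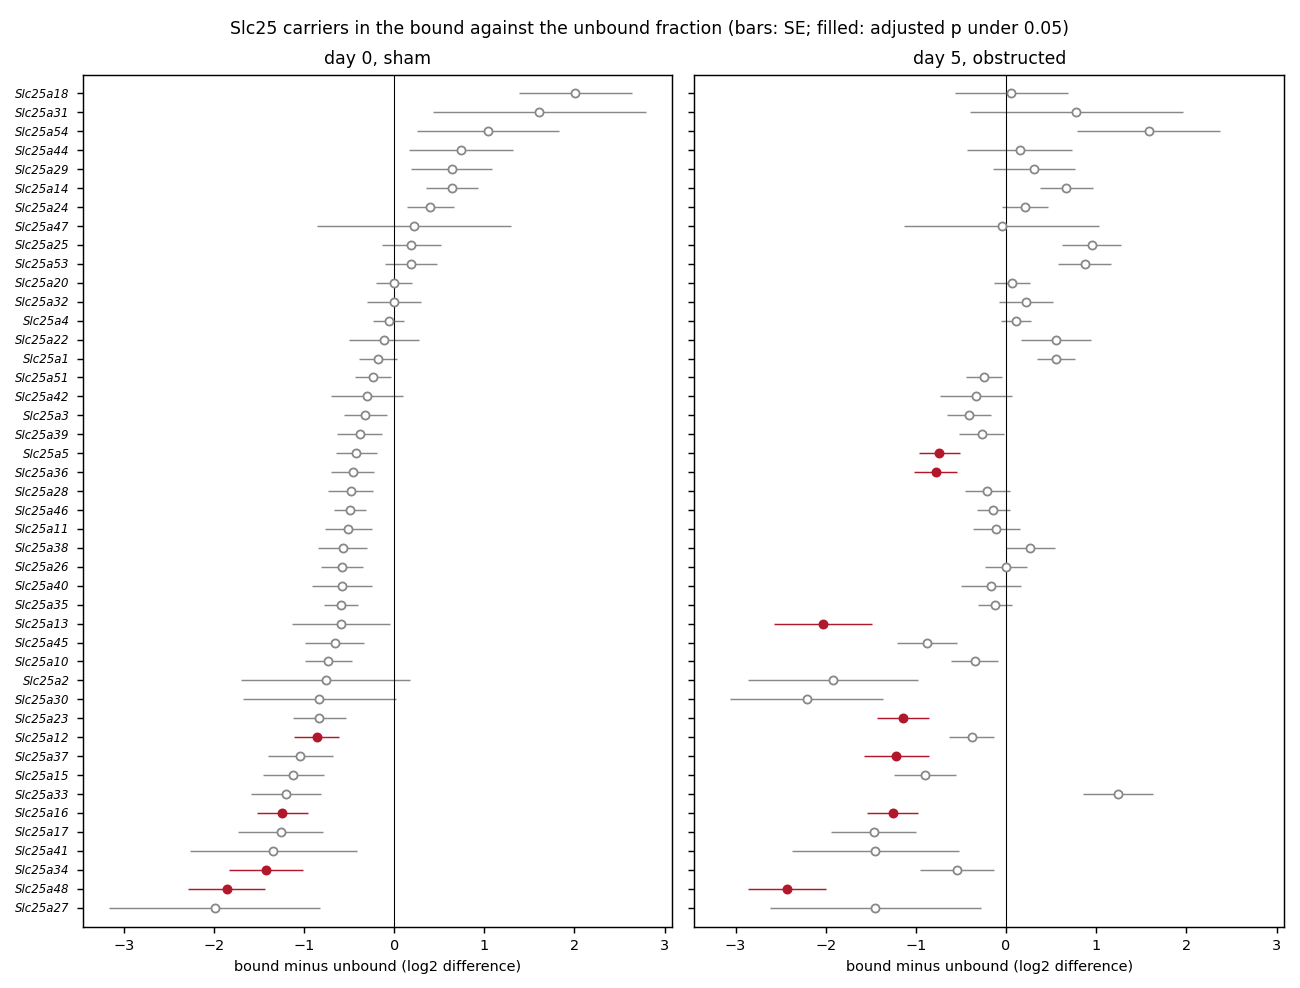
Bound minus unbound log2 difference of the 44 carriers at day 0 (left) and day 5 (right), ordered by the day 0 value, with bars of 1 standard error and filled points for an adjusted p under 0.05. All 11 filled points lie left of 0, and Slc25a33 lies left of 0 at day 0 and right of it at day 5; Slc25a18, Slc25a31, Slc25a41, Slc25a2, Slc25a54 and, at day 5, Slc25a48 rest on groups at or below the controls.

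Across both days 26 carriers had lower values in bound on each day and 9 had higher values on each. Slc25a16 and Slc25a48 passed as lower on both days, of 9 that passed on either, and over all genes 651 of 3223 did so in 1 direction (20.2%), 238 of them as lower. The days share no arrays. Values higher in bound on both days included Slc25a14 (0.64 ± 0.29 and 0.67 ± 0.29, adjusted p = 0.187 and 0.136), Slc25a24 (0.40 ± 0.26 and 0.21 ± 0.26) and Slc25a29 (0.64 ± 0.45 and 0.31 ± 0.45), none of which passed. Slc25a14's fractions overlap on neither day.

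The change in enrichment tests whether the difference between sham at day 0 and UUO at day 5 was unlike in the 2 fractions. In limma 0 of 44 carriers passed, against 0.0178% of all genes, and 4 had an unadjusted p under 0.05 (14.2% of all genes). Slc25a33 came nearest, with bound below unbound by -1.20 ± 0.39 at day 0 and above it by 1.24 ± 0.39 at day 5, without overlap on either day. Its change of 2.44 had an adjusted p of 0.127; it was 0.0417 when only the 4 groups of this contrast were fitted, and 0.0196 with array weights, where the change was 1.91. With array weights Slc25a38 also passed (0.98, adjusted p = 0.044).

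Quantile normalization makes the arrays' distributions alike, and centring arrays on their medians in its place moved the median of all genes at day 5 from 0.12 to 0.34 for bound against day 0 and from 0.03 to 0.41 for bound against unbound. The carriers' median moved with it, from -0.23 to 0.10 and from -0.19 to 0.19, so its sign flips while it stays below that of all genes. In unbound against day 0 it moved from -0.41 to -0.67, with all genes moving from 0.01 to -0.22. Under centring 2 carriers were higher and 5 lower in bound by day 5, and 0 higher and 9 lower in unbound, where 1 and 7 had passed. Of all 16860 genes 3498 then passed in bound and 1364 in unbound, where 4008 and 1747 had passed with quantile normalization.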

How the data were processed

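Polysomal RNA was amplified in 1 round with a NuGEN kit and labelled with biotin, per the labels, and hybridized to 15 one-colour arrays. The deposited values are linear probe set intensities. How probes were summarized, background-corrected and scaled is not stated in the labels or files. Array medians lay between 16.4 and 198.7. The number of arrays limits the precision.

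Values were transformed as log2 of the intensity plus 1 and quantile normalized over all probe sets. Of 45037 probe sets besides 64 controls, 34945 had 1 gene, 932 several and 9160 none in the platform annotation, and 34741 were matched by Entrez identifier to RefSeq GRCm38.p6. A Slc25a37 probe set that also names another gene was left out. Genes above the 25th percentile on at least 3 arrays were tested (16860). The highest of 27 negative control probe sets on an array was its floor, and a group whose mean did not exceed it counts as at the controls. Differences were fitted with limma 3.58.1 in R 4.3.3, with 5 group means, 7 contrasts, 10 residual degrees of freedom (prior 2.32) and Benjamini-Hochberg adjustment.

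The members and lists were chosen with earlier results of these data known. Array values are given for the members that passed and the brightest of each role, and from other lists for the genes with the largest differences that passed. In data simulated for bound against unbound at day 0 over 16860 genes, 100 were shifted 2-fold, 100 others 8-fold and no further genes differed. The test found 16% of the 2-fold and 63% of the 8-fold shifts. The adjusted p depends on how many genes differ, and 1505 passed in the data, so these rates may not hold there. The alternatives were no filter, a 50th percentile filter, median centring, mean of probe sets, a pseudocount of 16, only the contrast's groups, array weights, a trended robust prior and leaving out each array; leaving out the bright arrays and a brightness covariate were added after seeing the data. Figures were drawn with matplotlib 3.10.9.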

Additional observations from a re-analysis of the deposited data

How the results depend on the processing

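No paired analysis was possible because each array has a number of its own in the labels. No called difference changed direction, although that of Slc25a5 between bound and unbound at day 5 was 0.00 with median centring. Of the calls, 2 of 8 in bound at day 5 against day 0 (Slc25a5 and Slc25a29) and 2 of 8 in unbound (Slc25a5 and Slc25a35) held under every setting and every left-out array; 0 of 4 and 0 of 7 for bound against unbound at day 0 and day 5, and 0 of 3 at day 2, did so. Beside each count of carriers, the count over all genes tested is given in brackets. Settings that are not named need not have given the same count. For bound against unbound at day 0, 4 carriers passed (1505), but 2 with no filter (1351), 15 with array weights (4301), 0 without the bright arrays (314) and 2 with a brightness covariate (1282). At day 5, 7 passed (2385), but 2 with median centring (2366), 14 with array weights (6033), 0 without the bright arrays (1) and 4 with the covariate (2212). For the change in enrichment 0 passed (3), but 1 with only the groups of the contrast (340) and 2 with array weights (1937). For bound at day 2, 3 passed (1563), but 5 with a 50th percentile filter (1908), 1 with median centring (1092), 1 with the mean of probe sets (1246), 0 with only the groups of the contrast (246), 1 with array weights (1223) and 1 without the bright arrays (499). For bound at day 5 against day 0, 8 passed (4008). The 10 other settings gave 5 to 9 there (2123 to 6162), with 5 without the bright arrays (2123). For unbound, 8 passed (1747), but 14 with only the groups of the contrast (4250), 17 with array weights (5269) and 4 without the bright arrays (599). The cause of these shifts was not tested, except that leaving out arrays removes samples. Leaving out 1 array changed the counts over all genes as well, again given in brackets. For bound against unbound at day 0 it gave 0 to 5 carriers (520 to 1147). Without array 4, 5 or 6 the count was 0 (520, 636 and 720). At day 5 it gave 1 to 5 (842 to 1744), with 1 without array 14 (842). For the change in enrichment it gave 0 to 0 (1 to 7). Day 2 had 1 to 5 (993 to 2738), with 1 without array 3 (993). Bound at day 5 against day 0 had 7 to 9 (2481 to 3565), and day 5 against day 2 had 0 to 1 (37 to 1292). Unbound had 4 to 6 (773 to 1212), with 4 without array 5 (986). Members at or below the controls have only a bound there.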
